A study of Mus musculus with 2 samples.

Results

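The genes of glycolysis and of the response to low oxygen were followed through the cells of mouse brain bearing G422 glioma, a transplantable mouse brain tumour line. The set holds 34 of the 27998 genes in the deposited matrices, matched by gene symbol, and all 34 were found in both libraries. Of these, 22 belong to glucose uptake, glycolysis and lactate handling (the glycolysis list), and 12 are the oxygen-regulated factor Hif1a and genes it is known to switch on (the hypoxia list). Their levels were read in tumour, myeloid, T and endothelial cells of 2 single-cell libraries, 1 from long-term survivors (LTS) and 1 from untreated controls.

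Both libraries came from Kunming mice carrying the triple-negative G422 line in the brain, harvested at day 7 after an inoculation. LTS mice had outlived 100 days after a combined therapy, whose parts are not named in the sources used here, had then been given the same tumour cells on the other side of the brain, and had again lived past 100 days. It is not spelled out which inoculation their day 7 counts from. Control mice were inoculated and left untreated. How many animals went into either library is not stated, and each group had 1 library, so no difference between LTS and control could be tested and no p-value is given. Tissue was digested with collagenase and DNase, and cells were taken from the Percoll interphase at which immune cells collect, so shares of cell types are not those of the tissue.

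Glycolysis breaks glucose down to pyruvate. Glucose enters through Slc2a1 and Slc2a3, hexokinases trap it, phosphofructokinase commits it, and the enzymes from aldolase to pyruvate kinase (Pkm) finish the path. Ldha turns pyruvate into lactate, Ldhb favours the way back, and Slc16a1 and Slc16a3 carry lactate across the membrane. In low oxygen the factor HIF, whose regulated subunit is Hif1a, is no longer marked for destruction by the prolyl hydroxylases Egln1 and Egln3, and it raises many glycolytic genes together with genes of mitophagy, lipid storage, collagen modification and vessel growth. Solid gliomas are known for lactate production and for HIF activity around necrosis, brain endothelium for glucose transport through Slc2a1, and activated microglia for a glycolytic shift.

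The promoters of 7 of these genes are shown because their levels separated the cell types or differed most between the libraries in the results that follow. Each is the stretch of 250 bases before the gene's listed start, from RefSeq on GRCm38.p6, printed 5′ to 3′ on the gene's own strand. Capitals mark ACGTG on either strand (CACGT on the printed strand), 1 form of the core of the hypoxia response element that HIF binds. Where both overlap they form CACGTG, a sequence that other factors such as MYC also bind, and such a run is counted as 1. Ldha (chr7:46845554-46845803, plus strand, the first of 2 listed starts) held 3 runs, Slc16a3 (chr11:120948817-120949066, plus strand) and Hk2 (chr6:82774455-82774704, minus strand) held 2 each, and Slc16a1 (chr3:104638414-104638663, plus strand) and Slc2a1 (chr4:119108495-119108744, plus strand) held 1 each. Ldhb (chr6:142507958-142508207, minus strand) and Adm (chr7:110627407-110627656, plus strand) held 0 in this window, which says only that these letters are not in it. The other form of the core, GCGTG, was neither searched nor marked. It can be read in the Ldhb stretch, and in the Adm stretch as CACGC, its form on the other strand. The counts therefore do not separate genes with the core from genes without it.
Ldha: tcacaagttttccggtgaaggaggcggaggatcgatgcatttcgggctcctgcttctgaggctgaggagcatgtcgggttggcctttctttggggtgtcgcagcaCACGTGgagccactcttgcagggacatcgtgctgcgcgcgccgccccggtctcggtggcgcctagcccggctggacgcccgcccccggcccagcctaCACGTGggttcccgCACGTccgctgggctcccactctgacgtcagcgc
Ldhb: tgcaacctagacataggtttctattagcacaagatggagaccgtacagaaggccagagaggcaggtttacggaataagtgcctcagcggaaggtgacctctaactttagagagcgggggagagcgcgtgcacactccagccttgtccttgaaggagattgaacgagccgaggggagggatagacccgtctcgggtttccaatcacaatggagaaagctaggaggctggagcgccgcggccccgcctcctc
Slc16a3: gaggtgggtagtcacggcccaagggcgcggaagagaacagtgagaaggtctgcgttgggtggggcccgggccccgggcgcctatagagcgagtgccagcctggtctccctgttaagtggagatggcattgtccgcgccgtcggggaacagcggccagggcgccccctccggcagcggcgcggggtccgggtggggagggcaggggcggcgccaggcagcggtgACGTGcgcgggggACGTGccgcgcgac
Slc16a1: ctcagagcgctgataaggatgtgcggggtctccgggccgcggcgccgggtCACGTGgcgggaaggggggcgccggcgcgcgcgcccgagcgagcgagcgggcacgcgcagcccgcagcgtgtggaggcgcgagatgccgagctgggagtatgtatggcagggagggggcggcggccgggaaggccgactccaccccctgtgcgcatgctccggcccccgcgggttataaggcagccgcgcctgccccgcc
Slc2a1: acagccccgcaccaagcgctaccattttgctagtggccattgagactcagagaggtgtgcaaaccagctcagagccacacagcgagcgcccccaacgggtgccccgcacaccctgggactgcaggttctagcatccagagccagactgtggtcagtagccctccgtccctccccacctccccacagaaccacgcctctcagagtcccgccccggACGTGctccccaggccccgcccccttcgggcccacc
Hk2: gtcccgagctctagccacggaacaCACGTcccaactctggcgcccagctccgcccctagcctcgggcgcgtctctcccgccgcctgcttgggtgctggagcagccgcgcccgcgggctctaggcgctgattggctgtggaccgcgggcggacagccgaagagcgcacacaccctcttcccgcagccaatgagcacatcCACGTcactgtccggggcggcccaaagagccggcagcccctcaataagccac
Adm: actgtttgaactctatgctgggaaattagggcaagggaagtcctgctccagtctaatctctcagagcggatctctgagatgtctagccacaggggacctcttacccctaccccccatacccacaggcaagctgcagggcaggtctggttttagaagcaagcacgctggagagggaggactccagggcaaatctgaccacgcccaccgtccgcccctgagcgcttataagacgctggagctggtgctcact

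A promoter was listed for 31 of the 34 genes (none for Bnip3l, Slc2a3 and Ndrg1), and 20 of these 31 (64.5%) held the motif at any listed start, against 4998 of all 27025 genes with a listed promoter (18.5%). It was in 11 of 21 glycolysis genes and in 9 of 10 hypoxia genes. The set was chosen as glycolytic genes and known HIF targets, so a higher share than over all genes says nothing new about it. The background was not matched for base composition or number of listed starts. A match is a description of the sequence and not a binding site.

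Barcodes with at least 1000 UMIs, at least 300 genes and at most 15% mitochondrial UMIs were kept, which left 4835 LTS cells (median 18779 UMIs) and 8310 control cells (median 14889.5 UMIs). Libraries held 149413534 UMIs in LTS and 165796852 UMIs in control, and 13 barcodes were kept in both. Cells were clustered without the 34 genes, and clusters were called tumour-like, T-like and so on from marker genes, here shortened to tumour and T cells. Tumour cells numbered 2592 in LTS and 5266 in control (median 40555.5 and 20134.5 UMIs), myeloid cells 1096 and 1567 (4685.5 and 3468 UMIs), T cells 479 and 96 (3235 and 2093 UMIs) and endothelial cells 74 and 142 (16200 and 11686 UMIs). Genes of the host's Y chromosome summed to 0.898 CPM (UMIs per 1000000 UMIs of the class) in LTS and 0.974 CPM in control tumour cells. They summed to 127.9 and 104.8 CPM in myeloid cells, 187.4 and 97.2 CPM in T cells and 94.1 and 80.4 CPM in endothelial cells. A low level of these genes was part of the rule that named tumour clusters, so it is no separate check of that label. Empty droplets most often carried 410 UMIs in LTS and 630 UMIs in control. Taken at that amount, free RNA made up 0.994% of the UMIs of LTS and 2.99% of those of control tumour cells, 6.12% and 14.8% in myeloid, 10.8% and 20.3% in T, and 1.76% and 4.16% in endothelial cells.

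In all 4 classes the glycolysis genes made up a larger part of the RNA than the hypoxia genes. Glycolysis genes summed to 5464 CPM in LTS and 5574 in control tumour cells, 4876 CPM in LTS and 5241 in control myeloid cells, 3597 CPM in LTS and 4831 in control T cells and 4556 CPM in LTS and 4965 in control endothelial cells. Hypoxia genes summed to 619 CPM in LTS and 615 in control tumour cells, 510.3 CPM in LTS and 488 in control myeloid cells, 554 CPM in LTS and 694 in control T cells and 672 CPM in LTS and 621 in control endothelial cells. The sums of the classes were lowest in T cells for glycolysis in LTS, and the classes also differed in which member of a step they used. UMIs of a 3′ library count transcripts and were not scaled by length. Glycolytic genes such as Gapdh, Pkm, Ldha, Tpi1, Pgam1, Aldoa and Pgk1 have processed pseudogenes, and Eno1 has the near-identical copy Eno1b, so the levels of these genes are uncertain where counting could split their reads. Splice forms of Pkm cannot be told apart in these counts.

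**Figure D1:**
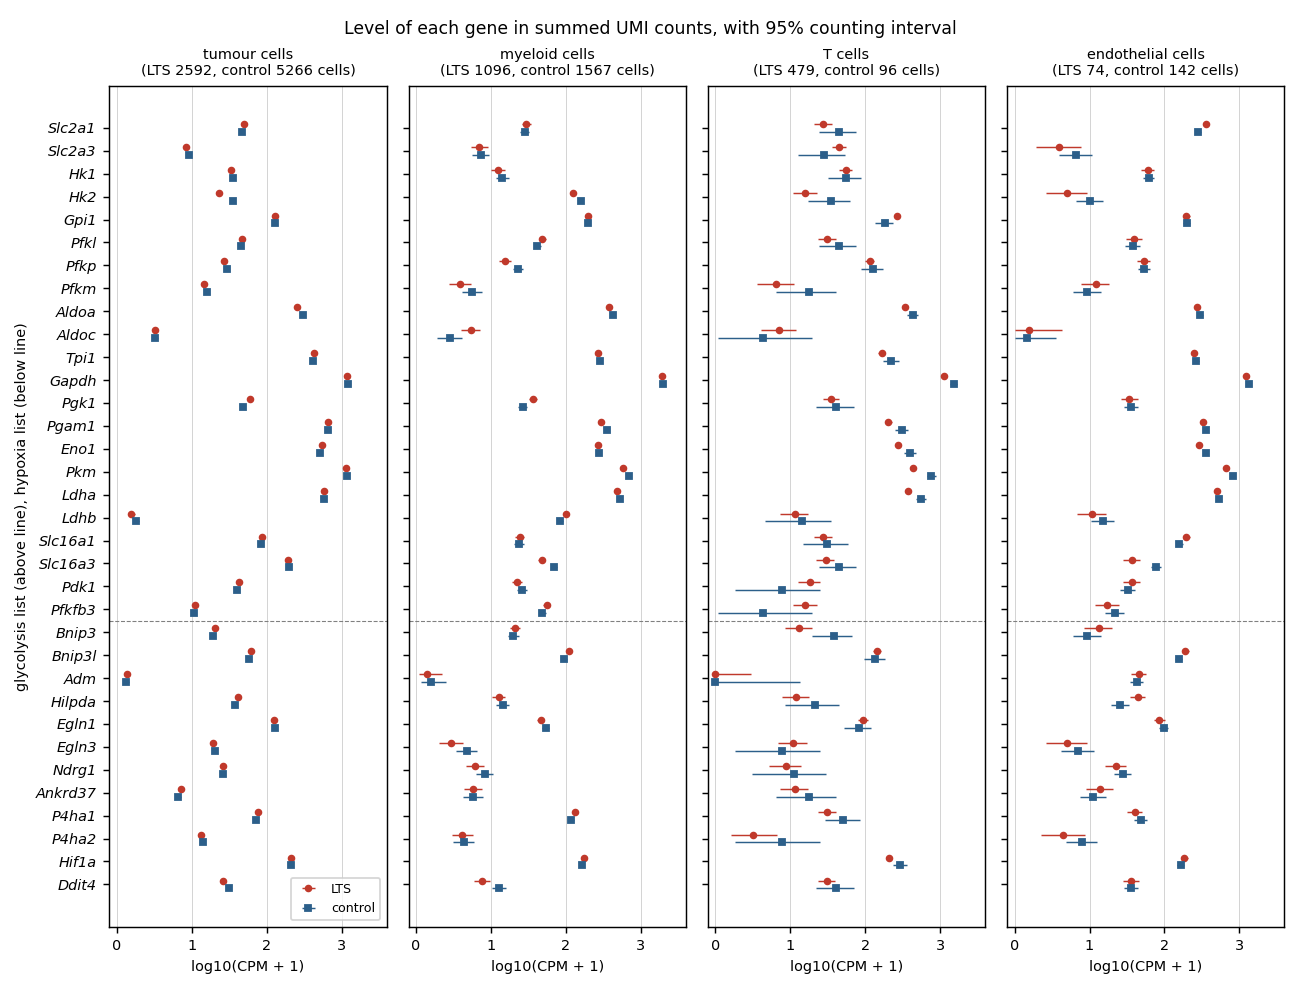
Level of each of the 34 genes on a log10(CPM + 1) axis in tumour, myeloid, T and endothelial cells, with LTS as circles and control as squares and lines for 95% counting intervals. In each class the LTS and control symbols lie close together for most genes, while Slc2a1, Hk2, Ldhb and Adm move far between classes.

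Glucose entry differed by cell type. Slc2a1, the transporter of the blood-brain barrier, stood at 353 CPM in LTS and 279 in control endothelial cells, against 48.1 CPM in LTS and 45.9 in control tumour cells, 28.5 CPM in LTS and 27.2 in control myeloid cells and 26.4 CPM in LTS and 43.6 in control T cells. Endothelial cells were far above every other class in both libraries, and their level was 7.34 times in LTS and 6.08 times in control that of tumour cells. Slc2a3, the high-affinity transporter known from neurons and lymphocytes, was highest in T cells, at 44.0 CPM (95% interval 34.9 to 54.7) in LTS and 26.8 CPM (11.6 to 52.8) in control. It stayed between 2.90 and 8.24 CPM in the other 3 classes. Its share of the UMIs of both transporters was 62.5% in LTS and 38.1% in control T cells, from 128 LTS and 21 control UMIs with overlapping intervals (53.5 to 70.9% and 18.1 to 61.6%), against 13.3% in LTS and 15.2% in control tumour cells and 0.817% in LTS and 1.96% in control endothelial cells.

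Hexokinases, which phosphorylate glucose and keep it in the cell, differed between the classes. Hk2, the form induced by HIF and by insulin signalling, was highest in myeloid cells, at 123 CPM (95% interval 115 to 131) in LTS and 157 CPM (147 to 166) in control myeloid cells. Tumour cells had 22.0 CPM in LTS and 34.04 in control, T cells 14.8 CPM in LTS and 33.5 in control and endothelial cells 4.07 CPM in LTS and 9.30 in control. Without endothelial cells of more than 10 UMIs of the tumour markers Pbld2 and Rhox5, the endothelial Hk2 level was 1.68 CPM in LTS and 0.787 in control. Hk2 made up 91.5% in LTS and 92.2% in control of the hexokinase UMIs of myeloid cells and 40.8% in LTS and 49.4% in control of those of tumour cells, where Hk1 and Hk2 were close to even. Endothelial cells were the opposite of myeloid cells, with Hk1, the constitutive form, at 93.6% in LTS and 86.8% in control of their hexokinase UMIs.

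At the phosphofructokinase step the isoform again followed the cell type. Pfkl, the liver form, was 73.5% in LTS and 60.5% in control of the UMIs of the 3 forms in myeloid cells and 53.9% in LTS and 50.5% in control in tumour cells. Pfkp, the platelet form, was 76.2% in LTS and 67.3% in control in T cells, where its level was 114 CPM in LTS and 124 in control, against 26.2 CPM in LTS and 28.7 in control tumour cells. Pfkm, the muscle form, was the smallest part in all 4 classes and largest in tumour cells, at 15.6% in LTS and 17.1% in control. Pfkfb3 makes the allosteric activator of phosphofructokinase, and it was 53.9 CPM in LTS and 47.3 in control myeloid cells against 9.90 CPM in LTS and 9.66 in control tumour cells, so myeloid cells had 5.44 times in LTS and 4.90 times in control the tumour level. Gpi1, the isomerase before this step, and Aldoa, the aldolase after it, were also higher in myeloid than in tumour cells, with Aldoa at 251 CPM in LTS and 302 in control tumour cells and 377 CPM in LTS and 426 in control myeloid cells. Aldoc, the brain aldolase known from astrocytes, did not pass 6.05 CPM in any of the 4 classes.

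From triose phosphate to pyruvate most enzymes were highest in tumour cells. Pgam1, phosphoglycerate mutase, was 657 CPM in LTS and 652 in control tumour cells and 294 CPM in LTS and 348 in control myeloid cells, a tumour level 2.23-fold (2.14 to 2.33) in LTS and 1.88-fold (1.80 to 1.96) in control that of myeloid cells. Eno1, enolase, was 545 CPM in LTS and 519.5 in control tumour cells and 263 CPM in LTS and 278 in control myeloid cells, and Pkm, pyruvate kinase, was 1133 CPM in LTS and 1181 in control tumour cells and 581 CPM in LTS and 694 in control myeloid cells. Tpi1 and Pgk1, the triose isomerase and the kinase that returns ATP, lay the same way against all 3 other classes in both libraries, with tumour levels of 426 CPM in LTS and 409 in control and of 59.4 CPM in LTS and 47.4 in control. Gapdh was the exception, at 1159 CPM in LTS and 1218 in control tumour cells against 1901 CPM in LTS and 1952 in control myeloid cells. Gapdh is widely used to scale expression, and its level here differed between cell types by more than its counting interval.

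Lactate handling differed between tumour and other cells. Ldha was high everywhere, between 367 CPM in LTS T cells and 580.1 CPM in LTS tumour cells. Ldhb was all but missing from tumour cells, at 0.561 CPM (95% interval 0.428 to 0.722) in LTS and 0.794 CPM (0.637 to 0.978) in control, below the 12.1 CPM in LTS and 7.07 in control found in empty droplets. Myeloid cells had 99.4 CPM in LTS and 81.7 in control, and Ldhb was 17.2% in LTS and 13.4% in control of their lactate dehydrogenase UMIs, against 0.0966% in LTS and 0.138% in control in tumour cells. Slc16a3, the carrier that exports lactate from glycolytic cells and whose promoter above holds ACGTG, was 192 CPM in LTS and 199.8 in control tumour cells, and the tumour level was 4.15-fold (3.72 to 4.63) in LTS and 2.93-fold (2.67 to 3.22) in control that of myeloid cells. Slc16a1, the carrier that moves lactate both ways, was 85.6 CPM in LTS and 82.4 in control tumour cells and 193 CPM in LTS and 157 in control endothelial cells. Slc16a3 was 69.2% in LTS and 70.8% in control of the UMIs of both carriers in tumour cells but 15.5% in LTS and 32.9% in control in endothelial cells. Without endothelial cells of more than 10 UMIs of the tumour markers Pbld2 and Rhox5, the endothelial Slc16a3 level was 20.1 CPM in LTS and 23.6 in control, against 35.4 CPM in LTS and 77.2 in control with them. Pdk1, which keeps pyruvate out of the mitochondrion, was 41.2 CPM in LTS and 38.9 in control tumour cells and 20.97 CPM in LTS and 25.0 in control myeloid cells.

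**Figure D2:**
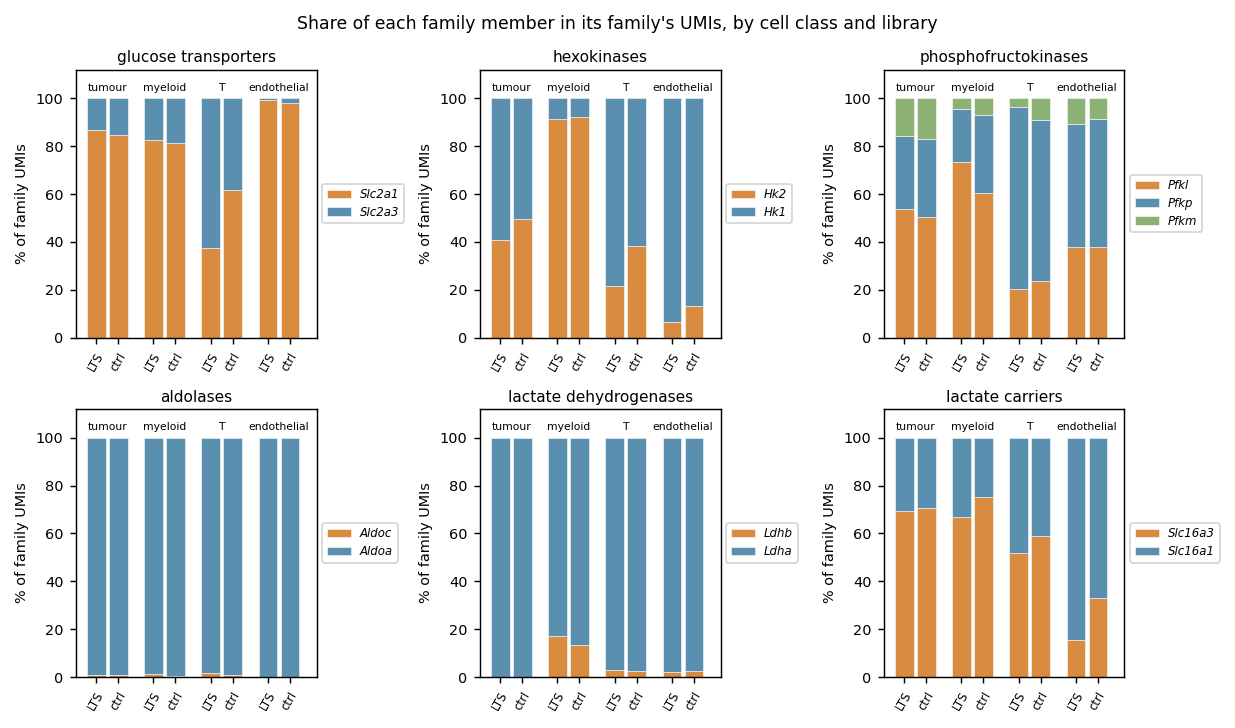
Share of each gene in the UMIs of its family (glucose transporters, hexokinases, phosphofructokinases, aldolases, lactate dehydrogenases, lactate carriers) as stacked bars in percent, by cell class, with LTS left of control in each pair. Hk2 fills most of the myeloid hexokinase bars (91.5% and 92.2%) and little of the endothelial ones (6.42% and 13.2%), while the control T cell bars rest on 21 glucose transporter and 26 hexokinase UMIs.

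Among the oxygen sensors, Hif1a RNA was well detected in every class, at 212 CPM in LTS and 212 in control tumour cells, 172 CPM in LTS and 162 in control myeloid cells, 206 CPM in LTS and 291 in control T cells and 184 CPM in LTS and 164 in control endothelial cells. HIF is mainly set by the stability of its protein, which was not measured. The prolyl hydroxylases that mark it, and that are HIF targets themselves, were both lower in myeloid than in tumour cells. Egln1 was 124 CPM in LTS and 127 in control tumour cells against 45.2 CPM in LTS and 52.7 in control myeloid cells. In LTS it was 92.3 CPM in T cells and 84.8 CPM in endothelial cells. The tumour level was there 1.34 and 1.46 times theirs, under 1.5-fold. Egln3 was 18.4 CPM in LTS and 19.3 in control tumour cells against 1.91 CPM in LTS and 3.74 in control myeloid cells and 4.07 CPM in LTS and 6.04 in control endothelial cells.

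The HIF targets differed in which cells held them. Adm, the vessel-dilating peptide adrenomedullin, was highest in endothelial cells, at 44.7 CPM (95% interval 35.3 to 55.9) in LTS and 41.4 CPM (33.2 to 50.9) in control. It was 0.374 CPM in LTS and 0.325 in control tumour cells and 0.408 CPM in LTS and 0.599 in control myeloid cells, levels below the 1.28 CPM in LTS and 0.841 in control of empty droplets. With every cell thinned to 1000 UMIs, Adm was found in 4.05% of LTS and 4.23% of control endothelial cells, against 0 of 2592 LTS tumour cells, which allows up to 0.116% of cells with a UMI at that depth, and 0.0380% of control tumour cells. Unthinned, the shares were 31.1% and 28.2% of endothelial cells (median 16200 and 11686 UMIs) against 1.00% and 0.589% of tumour cells (median 40555.5 and 20134.5 UMIs), in LTS and control. T cells had 0 Adm UMIs in 479 LTS and in 96 control cells (median 3235 and 2093 UMIs), which allows up to 0.626% and 3.13% of cells with a UMI at these depths. These limits cover detection only, not the share of cells that express the gene.

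Ndrg1, a stress-induced gene that HIF raises in many tissues, was 25.3 CPM in LTS and 25.4 in control tumour cells and 21.5 CPM in LTS and 27.0 in control endothelial cells, against 5.17 CPM in LTS and 7.19 in control myeloid cells. Hilpda, a lipid droplet protein that blocks fat breakdown, was 40.3 CPM in LTS and 36.7 in control tumour cells, 43.0 CPM in LTS and 24.6 in control endothelial cells and 11.7 CPM in LTS and 13.3 in control myeloid cells. Both genes were thus low in myeloid cells. P4ha1 and P4ha2, the catalytic subunits of collagen prolyl hydroxylase, went opposite ways. P4ha1 was 76.3 CPM in LTS and 70.6 in control tumour cells against 131 CPM in LTS and 117 in control myeloid cells. P4ha2 was 12.3 CPM in LTS and 12.9 in control tumour cells against 3.13 CPM in LTS and 3.29 in control myeloid cells. The mitophagy receptor Bnip3l was higher than its relative Bnip3 in every class, and lowest in tumour cells, at 59.7 CPM in LTS and 57.1 in control, against 188 CPM in LTS and 153 in control endothelial cells. Bnip3 was 19.1 CPM in LTS and 17.9 in control tumour cells and 20.2 CPM in LTS and 18.7 in control myeloid cells. Ddit4, an inhibitor of mTORC1, was 24.8 CPM in LTS and 30.5 in control tumour cells, against 6.67 CPM in LTS and 11.8 in control myeloid cells and 34.9 CPM in LTS and 34.9 in control endothelial cells. Ankrd37, an ankyrin-repeat target of HIF, did not pass 16.8 CPM in any class.

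Counted over genes with at least 20 CPM in either class, and calling a difference past 1.5-fold on log2(CPM + 5), tumour cells were higher than myeloid cells for 11 of 19 glycolysis genes in LTS and 8 of 19 in control, and lower for 5 and 5. Among all measured genes 39.7% in LTS and 37.6% in control were higher in tumour cells, and 23.7% and 21.1% were lower. The median log2 ratio of tumour over myeloid cells was 0.67 in LTS and 0.54 in control for glycolysis genes and 0.82 and 1.08 for hypoxia genes, against 0.35 and 0.34 over all measured genes. Hypoxia genes were higher in tumour cells for 4 of 8 in LTS and 4 of 7 in control and lower for 2 and 2. Against T cells, tumour cells were higher for 10 of 18 glycolysis genes in LTS (39.8% of all measured genes) and 6 of 18 in control (29.8%), and lower for 4 (21.2%) and 2 (20.8%). Against endothelial cells they were higher for 7 of 17 in LTS (24.2%) and 4 of 18 in control (19.2%), and lower for 5 (19.2%) and 6 (15.9%). For hypoxia genes the tumour level was higher than in T cells for 3 of 7 in LTS and 3 of 8 in control, and lower for 1 and 2. Against endothelial cells it was higher for 1 of 8 in LTS and 0 of 8 in control, and lower for 2 and 2. The classes compared had been made from other genes of the same cells.

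Within the myeloid class, microglia and monocytes or macrophages used different members. Microglia (870 LTS and 1151 control cells) had higher Hk2, at 132 CPM in LTS and 172 in control, than monocytes or macrophages (226 LTS and 416 control cells), at 80.7 CPM in LTS and 98.7 in control. Ldhb was 116 CPM in LTS and 99.2 in control microglia against 29.0 CPM in LTS and 17.5 in control monocytes or macrophages, and P4ha1 was 147 CPM in LTS and 129.9 in control against 61.6 CPM in LTS and 67.9 in control. Hif1a and Pfkp lay the other way. Hif1a was 140.2 CPM in LTS and 138 in control microglia against 303 CPM in LTS and 251 in control monocytes or macrophages. Pfkp was 8.93 CPM in LTS and 16.0 in control microglia against 36.8 CPM in LTS and 43.4 in control monocytes or macrophages. Hypoxia genes summed to 487 CPM in LTS and 467 in control microglia and 609 CPM in LTS and 564 in control monocytes or macrophages. These sums include Hif1a, whose own gap between these cells was wider than that of the sums in both libraries. The other hypoxia genes together were therefore not higher in monocytes or macrophages.

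Tumour cells fell into 9 clusters. Cluster 2, led by the matrix genes Postn, Aspn and Col1a1, was lowest for glycolysis, at 3820.2 CPM in LTS and 3923 in control. Cluster 9, led by histone genes such as Hist1h1b, was highest, at 6709.9 CPM in LTS and 6487 in control. Slc16a3, the lactate exporter, had a wide range, at 61.4 CPM in LTS and 70.4 in control cluster 2 against 317 CPM in LTS and 302 in control cluster 9. With it, 12 of 22 glycolysis genes in LTS and 11 of 22 in control had their lowest level in cluster 2, among them Tpi1, Gapdh, Pgk1, Pgam1, Eno1, Pkm and Ldha in both libraries. Others were lowest elsewhere, and Pfkp and Pfkm had their highest level in cluster 2, with Pfkp at 37.6 CPM in LTS and 38.8 in control. How many of all genes were lowest in cluster 2 was not counted, so these counts have no share to be set against. Cluster 2 also had the lowest median depth of the 9 tumour clusters, at 27730 UMIs in LTS and 12674 in control.

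The hypoxia sum had its highest cluster elsewhere. It was highest in cluster 13, led by the secreted factors Il11 and Areg, at 765 CPM in LTS and 707 in control, and 629 CPM in LTS and 620.4 in control in the cluster lowest for glycolysis. Ndrg1 was 89.5 CPM in LTS and 69.4 in control cluster 13 and 53.1 CPM in LTS and 53.1 in control cluster 7, led by Il11 and Grem1, against 7.11 CPM in LTS and 9.23 in control cluster 2. Ndrg1 stood among the leading genes of cluster 13 although it was left out of the clustering. Hk2 had the same order, at 43.6 CPM in LTS and 62.9 in control cluster 13 and 10.02 CPM in LTS and 17.7 in control cluster 2. Slc2a1, Pgk1 and Hilpda also had their highest level in cluster 13 in both libraries, with Slc2a1 at 74.2 CPM in LTS and 68.9 in control there. Egln3 instead peaked in cluster 9, at 29.1 CPM in LTS and 27.9 in control. Ddit4 and Bnip3l were high where glycolysis was low, with Ddit4 at 44.2 CPM in LTS and 48.5 in control cluster 2 and 10.4 CPM in LTS and 17.5 in control cluster 9. Over the 9 clusters the highest level was 12.6 times the lowest in LTS and 7.52 times in control for Ndrg1, but 1.35 and 1.31 times for Hif1a.

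**Figure D3:**
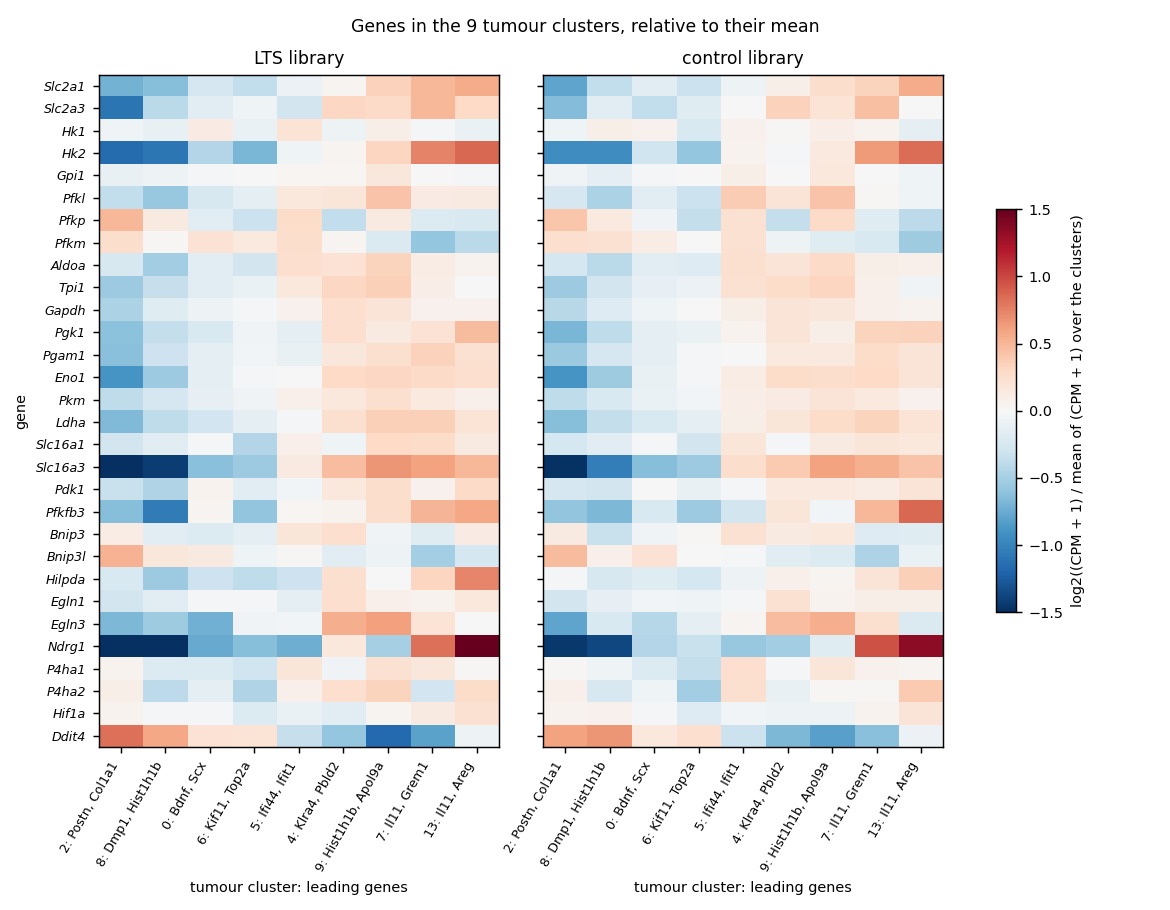
Level of each gene in the 9 tumour clusters of the LTS library (left) and the control library (right), as log2 of (CPM + 1) over its mean across the clusters, with the colour scale ending at 1.5 either way and genes with a median under 5 CPM left out. Cluster 2 is low (blue) in both libraries for Tpi1, Gapdh, Pgk1, Pgam1, Eno1, Pkm, Ldha and Slc16a3, while Ndrg1 and Hk2 are high (red) in clusters 7 and 13, and Ddit4 is high in clusters 2 and 8.

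Cell by cell, some members were higher where a score of other HIF targets was higher. Tumour cells were thinned to 5000 UMIs, which left out 129 LTS and 178 control cells, and were ranked by the mean z-score of 36 other HIF targets that share no gene with the set, of which 32 had UMIs in LTS and 34 in control. Between the highest and the lowest tercile of cells the ratio of summed UMIs for Ndrg1 was 2.06 (1.53 to 2.79) in LTS and 1.67 (1.36 to 2.04) in control. It was 1.87 (1.36 to 2.59) in LTS and 1.203 (1.01 to 1.43) in control for Hk2, 1.34 (1.06 to 1.68) in LTS and 1.29 (1.10 to 1.51) in control for Hilpda and 1.17 (1.05 to 1.30) in LTS and 1.29 (1.204 to 1.39) in control for Slc16a3. Ldha (1.08 in LTS and 1.05 in control), Pkm (1.07 and 1.04) and Tpi1 (1.08 and 1.07) also had intervals above 1 in both libraries. For every other member with a ratio the interval held 1 in at least 1 library. Among the hypoxia genes only Ndrg1 and Hilpda rose in both. Egln1 was at 1.03 in LTS and 0.97 in control, Egln3 at 1.33 and 1.00 and Bnip3l at 1.03 and 1.02. Hk1 was at 0.81 and 1.02 and Slc16a1 at 0.89 and 1.06. This ratio was not computed over all genes, so whether these members rose more than other genes was not tested. For the sum of the glycolysis genes the ratio was only 1.06 (1.04 to 1.08) in LTS and 1.05 (1.04 to 1.06) in control, and for that of the hypoxia genes 1.14 (1.08 to 1.21) in LTS and 1.07 (1.03 to 1.11) in control. Intervals here and above are exact 95% intervals that cover counting error only, and cells are not replicates. Across 2463 LTS and 5088 control tumour cells the glycolysis and hypoxia sums had a Pearson r of 0.182 and 0.087 and a Spearman rho of 0.11 and 0.036, over cells of 1 library at equal depth with a median of only 3 hypoxia UMIs, which at this sparsity is no finding.

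In tumour cells these genes differed little between LTS and control. Of 24 measured members (20 CPM or more in LTS or control), 0 differed past 1.5-fold, where 0.421% of all measured genes did so, 0.0156% higher and 0.405% lower. The median log2 ratio of LTS over control was 0.01 for glycolysis and 0.00 for hypoxia genes, against -0.01 over all measured genes. The member that lay farthest out was Hk2, at 22.0 CPM (95% interval 21.1 to 22.9) in LTS and 34.04 CPM (33.0 to 35.1) in control. Its ratio was 0.646 (0.614 to 0.681), or -0.53 as log2 with 5 CPM added to both, just inside the threshold, and 28 of 6420 measured genes were lower still. With 1 CPM added in place of 5, Hk2 passed it and the count was 1. LTS was below control for Hk2 in all 9 tumour clusters. Aldoa, at 251 CPM in LTS and 302 in control, and Ddit4, at 24.8 CPM in LTS and 30.5 in control, were also below in all 9 clusters, with ratios of 0.831 (0.818 to 0.844) and 0.812 (0.771 to 0.855). Pgk1 lay the other way in all 9, at 59.4 CPM in LTS and 47.4 in control, a ratio of 1.25 (1.21 to 1.30), while the ratio was 1.01 for Ldha, 0.961 for Slc16a3 and 1.00 for Hif1a. Tpi1 and Eno1 were also above in all 9 clusters, with log2 ratios of only 0.058 and 0.067 over the class, and Pfkm was below in all 9. How many of all genes keep 1 sign in all 9 clusters was not counted. Clusters of the same library are not independent repeats.

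Myeloid cells were likewise close, with 0 of 23 measured members past 1.5-fold, where 3.67% of all measured genes were. The median log2 ratio was -0.07 for glycolysis and 0.085 for hypoxia genes, against -0.01 over all measured genes. Slc16a3 was 46.3 CPM in LTS and 68.3 in control, a ratio of 0.678 (0.588 to 0.782), and Hk2 was 123 CPM in LTS against 157 in control, a ratio of 0.783 (0.715 to 0.856). Pgk1 was higher, at 35.5 CPM in LTS against 25.5 in control, a ratio of 1.40 (1.15 to 1.70), and so were Ldhb and Bnip3l, with ratios of 1.22 (1.09 to 1.36) and 1.17 (1.05 to 1.30). Cluster 15, a microglia cluster, held 220 LTS and 6 control cells, and without it the medians were -0.03 and 0.10 with 0 members past 1.5-fold. Tumour markers, all 13 of them detected, summed to 521 CPM in LTS and 1216 CPM in control myeloid cells, and a list of 18 genes known to rise during tissue dissociation had a median log2 ratio of 0.34, with 3 of 15 measured genes past 1.5-fold higher (0.883% of all genes). The part of either in these ratios was not tested.

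T cells had the widest list medians of the 4 classes, on 96 control cells. Of 24 measured members 1 was past 1.5-fold higher in LTS and 6 were lower, where 11.2% of all measured genes were higher and 24.6% lower, so the 7 of 24 lay below the 35.8% of all genes past the threshold either way. The median log2 ratio was -0.42 for glycolysis and -0.49 for hypoxia genes, against -0.18 over all measured genes, and -0.15 and -0.23 for the lists when scaled by the median of ratios. Pkm was 435 CPM (95% interval 406 to 467) in LTS and 761 CPM (665 to 866) in control, a ratio of 0.572 (0.493 to 0.666). Bnip3 was 12.1 CPM (95% interval 7.58 to 18.3) in LTS and 36.9 CPM (18.4 to 65.9) in control, from 22 LTS and 11 control UMIs, a ratio of 0.328 (0.152 to 0.749). For these 2 the interval left out 1. It held 1 for the other 4 that were lower, Slc2a1, Hk2, Hilpda and P4ha1, and for Slc2a3, the 1 that was higher, at 44.0 CPM in LTS and 26.8 in control. With T cells chosen by marker UMIs instead of by cluster, P4ha1 turned to 32.2 CPM in LTS and 14.3 in control, past 1.5-fold higher in LTS, Slc2a1 to 27.9 CPM in LTS and 21.5 in control and Hilpda to 11.1 CPM in LTS and 7.15 in control. Ldha, Gapdh, Eno1 and Pgam1 were lower by less than the threshold once 5 CPM were added, with ratios between 0.665 for Pgam1 and 0.751 for Gapdh before that. Pgam1 lay at the threshold and passed it with 1 CPM added in place of 5. Gpi1 was higher, at 267 CPM in LTS and 181 in control.

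Signs of other cells moved with these T cell values. T cell markers summed to 4414 CPM in LTS and 1719 CPM in control, tumour markers to 1020 CPM and 2530 CPM with all 13 detected, microglia markers to 351 CPM (12 of 12 detected) and 647 CPM (11 of 12), and NK markers to 676 CPM and 405 CPM (6 of 6). Dissociation genes, 14 of 18 measured, had a median log2 ratio of -0.54. Free RNA at the amount of a modal empty droplet was 10.8% of T cell UMIs in LTS and 20.3% in control. With it taken off, Pkm was 329.9 CPM in LTS and 695 in control and Bnip3 11.3 CPM in LTS and 42.0 in control. With the amount set by tumour markers instead, free RNA came to 19.8% in LTS and 61.8% in control, and Pkm then lay higher in LTS, with a log2 ratio of 1.00. Scaled by the median of ratios over genes, Slc2a3, Hk2, Gpi1 and Bnip3 were the 4 members past 1.5-fold and Pkm was not. The part of free RNA and of the makeup of the T cells in these values was not tested.

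Endothelial cells had 2 of 25 measured members past 1.5-fold, 1 higher and 1 lower, where 5.75% of all measured genes were, 2.42% higher and 3.34% lower. Hilpda was higher, at 43.0 CPM (95% interval 33.8 to 54.0) in LTS and 24.6 CPM (18.5 to 32.2) in control, a ratio of 1.74 (1.21 to 2.53). It was found in 32 of 74 LTS and 34 of 142 control cells, at median depths of 16200 and 11686 UMIs. Thinned to 1000 UMIs per cell, the shares were 8.11% in LTS and 3.52% in control. Thinned to 2000 UMIs per cell, they were 7.69% in LTS and 6.06% in control. At either depth the counting intervals overlap. Slc16a3 was lower, at 35.4 CPM (95% interval 27.1 to 45.5) in LTS and 77.2 CPM (65.9 to 89.8) in control, a ratio of 0.459 (0.337 to 0.619), although the share of cells with a UMI was 35.1% in LTS and 33.1% in control. Some endothelial cells carried many UMIs of the tumour markers Pbld2 and Rhox5. Without those of more than 10 such UMIs, which left 64 LTS and 115 control cells, Slc16a3 was 20.1 CPM in LTS and 23.6 in control and no longer past 1.5-fold, while Hilpda was 44.5 CPM in LTS and 22.8 in control. Slc2a1, the main glucose carrier of these cells, was 353 CPM in LTS and 279 in control, a ratio of 1.26 (1.13 to 1.42), and Slc16a1 and Bnip3l were similarly higher, with ratios of 1.23 (1.06 to 1.44) and 1.23 (1.05 to 1.43). Eno1, Pkm and Gapdh were lower, with Pkm at 670.3 CPM in LTS against 807 in control. Adm did not differ beyond its interval, with a ratio of 1.08 (0.786 to 1.48). The median log2 ratio was -0.08 for glycolysis and 0.05 for hypoxia genes, against -0.02 over all measured genes. Tumour markers summed to 2118 CPM in LTS and 2122 CPM in control endothelial cells, with 13 of 13 detected. Pericyte markers, 6 of 6 detected in both, summed to 114 CPM in LTS and 34.9 CPM in control endothelial cells, and the part of either list in the ratios was not tested.

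**Figure D4:**
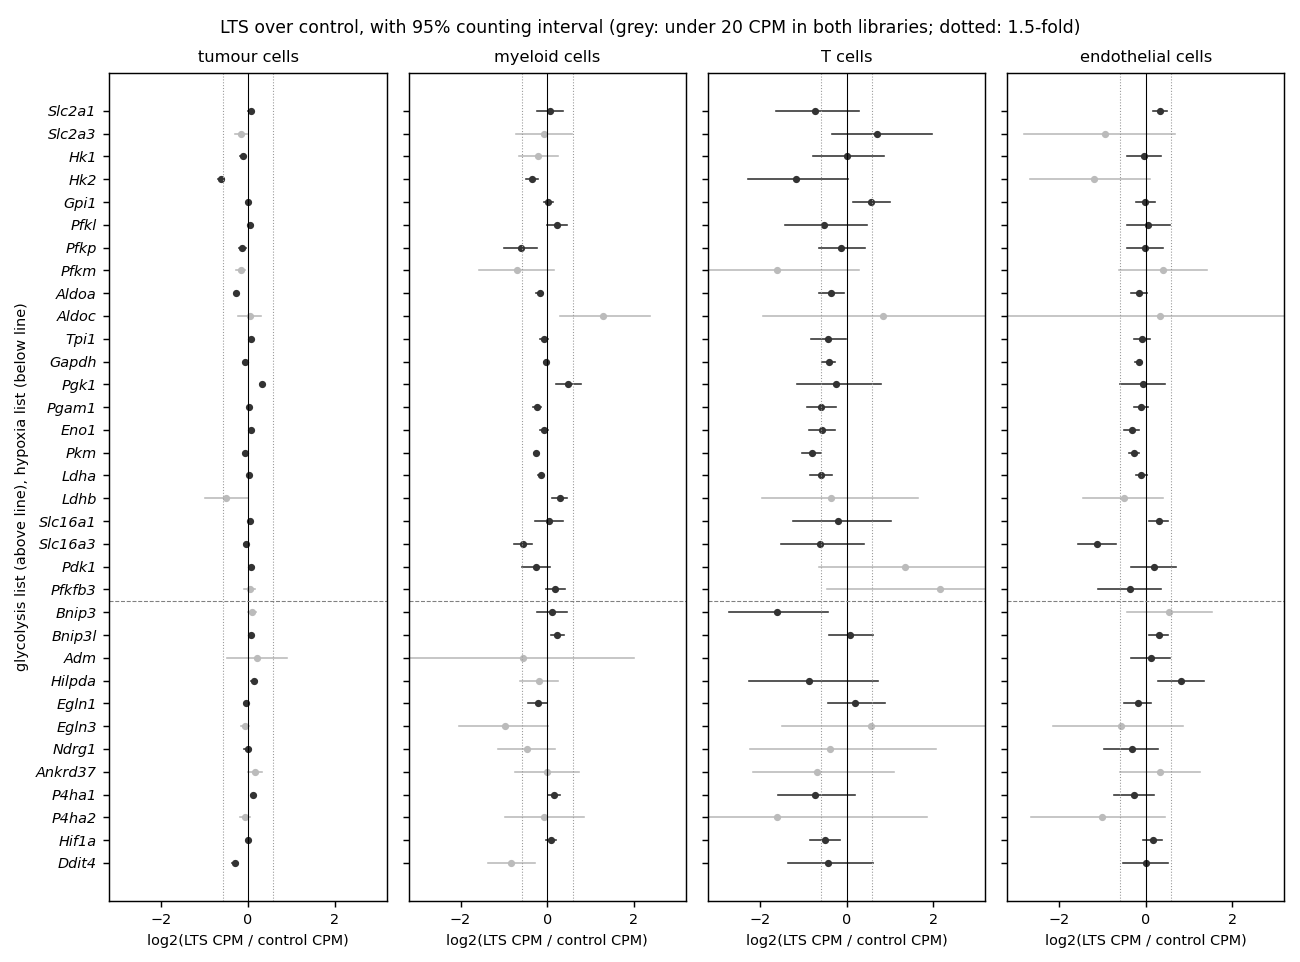
Log2 ratio of LTS CPM over control CPM for each gene and class, with 95% counting intervals, dotted lines at 1.5-fold and genes under 20 CPM in both libraries in grey. Among measured genes of tumour cells Hk2, at its ratio of 0.646, lies farthest from 0, and T cell intervals are wide, with most points left of 0.

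Followed across classes, the members kept 1 sign about as often as other genes. Of 18 members measured in all 4 classes, LTS was below control in 4 of 4 for 5 (Gapdh, Pkm, Aldoa, Pfkp and Slc16a3) and above it in 4 of 4 for 1 (Bnip3l), where 25.9% of the 4792 genes measured in all 4 were below throughout and 8.01% above. Among members under 20 CPM in some class, Hk2, Ddit4, Ndrg1 and P4ha2 were also below in 4 of 4, with Ddit4 at a ratio of 1.00 in endothelial cells, and Aldoc was above in 4 of 4. Among these members, counting intervals lay wholly below 1 in 4 of 4 classes for Gapdh and Pkm and in 3 of 4 for Aldoa and Slc16a3. They did so in 2 of 4 for Pfkp, Hk2 and Ddit4 and in 0 of 4 for Ndrg1 and P4ha2. They lay wholly above 1 in 3 of 4 for Bnip3l and in 1 of 4 for Aldoc. Under the alternative settings Gapdh turned in 1 of 12 in myeloid cells, and Pkm in 1, Bnip3l in 4, Slc16a3 in 2 and Pfkp in 1 of 9 in T cells. In endothelial cells Hk2 and Pfkp turned in 2, Aldoa in 1 and Ddit4 in 4 of 10. Ndrg1, P4ha2 and Aldoc turned in at least 1 setting of some class. All classes of a library share its preparation and its free RNA, so these are not independent repeats. Empty droplets held Gapdh at 1028 CPM in LTS and 1295 in control and Hk2 at 25.4 CPM in LTS and 24.5 in control.

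Genes next to this set in metabolism differed as little in tumour cells. Of 13 measured genes among 36 other HIF targets, 5 among 10 HIF factors and their regulators, 11 among 38 further genes of glycolysis and pyruvate use, 7 of 7 of the pentose phosphate pathway and 10 among 12 of mTORC1 and the integrated stress response, 0 were past 1.5-fold there (0.421% of all measured genes). Psph, a serine synthesis enzyme, was lower in 3 classes, at 25.6 CPM in LTS against 53.4 CPM in control myeloid cells, 52.2 against 134 CPM in T cells and 37.8 against 63.7 CPM in endothelial cells. In endothelial cells 3 of 17 other HIF targets were higher (2.42% of all genes), among them Bhlhe40, a clock and hypoxia factor, at 50.5 CPM in LTS against 29.3 CPM in control. In T cells 2 of 17 other HIF targets were higher and 6 lower, with the cytokine Mif at 495 CPM in LTS against 895 CPM in control, with 24.6% of all genes lower, and 5 of 8 measured genes of mTORC1 and the integrated stress response were lower, with the asparagine synthetase Asns at 44.0 against 83.8 CPM.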

How the data were processed

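Single-cell RNA was measured in 2 libraries, 1 of LTS and 1 of control tissue. The deposited values were UMI counts per gene and barcode, raw and unfiltered over 6794880 barcodes, made by the authors with Cell Ranger 4 per the file headers on build mm10 per the submitters' processing notes. Which annotation release was used is not stated there. Libraries used 3' version 3 chemistry, per the labels' protocols. The 34 genes, all other lists and the markers were chosen with earlier results of these data known, and the rule that names clusters was written after the data were seen.

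Kept barcodes of both libraries were scaled to 10000 UMIs, and 2000 variable genes without the 34 gave 30 components and, on 15 neighbours, 22 Leiden clusters at resolution 1 (scanpy 1.11.5, leidenalg 0.10.2, numpy 2.4.6, pandas 2.3.3, scipy 1.17.1, python 3.11.15, matplotlib 3.10.9). A host class needed 3 markers in 10% of a cluster's cells at 2 times the level elsewhere, and no other class leading among its top 10 genes. Tumour-like clusters needed 7 of 13 markers above the immune level, with Ptprc and Y-linked genes under 10% of it. They also needed a median UMI count that was not far below that of the library. Cluster 1 (291 LTS and 899 control cells, median 1655 and 1271 UMIs) had 9 of 13 tumour markers and failed only this depth condition. Unnamed clusters 1 and 14 stayed out. No doublet caller was run and no cell was removed as a doublet. Because clusters came from the genes of the same cells, differences between classes were not tested.

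UMIs were summed per class and library, and CPM, exact Poisson intervals of levels, exact conditional binomial intervals of ratios and exact binomial (Clopper-Pearson) intervals of shares were computed at 95%. UMIs of 1 library are not independent samples of animals, so these cover counting error only. A gene was measured at 20 CPM or more in either library, ratios used log2(CPM + 5), and 1.5-fold was the threshold. All 34 genes are named by rule, and from each other list up to 3 genes per class past 1.5-fold with at least 50 CPM. The ratio step was tested on simulated counts. Positions came from RefSeq on GRCm38.p6.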

Additional observations from a re-analysis of the deposited data

Results flagged for a closer look

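Hilpda, the lipid droplet protein of the HIF response, lay opposite ways in a pair of cell classes. LTS was below control in T cells, at 10.99 CPM in LTS and 20.1 in control (20 and 6 UMIs), with a log2 ratio of -0.65, and above it in endothelial cells, at 43.0 CPM in LTS and 24.6 in control, with a log2 ratio of 0.70. With 1 library per group the difference between the classes was not tested. Under the alternative settings the ratio stayed above 0 in 10 of 10 in endothelial cells, and it turned above 0 in 2 of 9 in T cells. In T cells Hilpda reached the minimum of 20 CPM only in control.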

How the results depend on the processing

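With 1 library per group no replicate could be left out, and no list median or summed level was tested. No paired analysis was possible because each group had 1 library. Of the alternative values, 39 of 41 glycolysis medians and 40 of 41 hypoxia medians stayed within the bounds of the reported value. These bounds are the medians of the members' lower and upper counting limits, and not an interval of the median itself. All 12 hypoxia sums stayed within the counting interval of the reported value, while 8 glycolysis sums stayed and 4 moved. Of the shares of cells with a UMI, 27 stayed and 37 moved. Counts of members past 1.5-fold stayed within 1.5 times of the reported count in 31 of 41 cases. In T cells the bounds were -0.86 to 0.29 for glycolysis and -1.36 to 0.60 for hypoxia, so staying within them says little. The T medians within them include -0.15 for glycolysis and -0.23 for hypoxia under median-of-ratios scaling, against -0.42 and -0.49 as reported. The T counts include 5, 9 and 10 against 7. With 1 CPM added in place of 5 the tumour count was 1 (Hk2). With free RNA taken off by markers the count was 1 in myeloid (Pgk1), 13 in T and 11 in endothelial cells, the tumour hypoxia median was -0.032 and the endothelial glycolysis median -0.37. This estimate put free RNA at 60.6% of LTS and 48.8% of control endothelial UMIs. In T cells median-of-ratios scaling gave 4 and a minimum of 50 CPM gave 2. In endothelial cells the count was 1 at 50 CPM (Slc16a3), 5 with cells weighed equally, 1 with cells chosen by marker UMIs and 1 without cells of more than 10 Pbld2 and Rhox5 UMIs, both times Hilpda. With cells chosen by marker UMIs the tumour glycolysis median was -0.0049. The tumour over myeloid glycolysis sum was 1.12 in LTS and 1.06 in control as reported, 1.14 and 1.03 with cells weighed equally, and 1.14 and 1.09 with cells chosen by marker UMIs. The cause of these shifts was not tested. Free RNA at the modal droplet, leaving out clusters 11, 13 or 15, microglia alone, and leaving out cells with Pbld2 and Rhox5 UMIs were chosen after seeing the data. Depth limited T and endothelial cells most, where Bnip3 rested on 22 LTS and 11 control T cell UMIs and Hk2 on 7 LTS and 20 control endothelial UMIs.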

Other observations

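Cells outside the 4 classes held some of the highest levels of single members. Choroid plexus cells (69 in LTS and 12 in control) had Ldhb, the lactate dehydrogenase form of oxidative tissue, at 1249 CPM in LTS and 775 in control, above every class of the report. Ndrg1, which is also known from myelinating cells, was 40.5 CPM in LTS and 315 in control oligodendrocytes, from 6 UMIs in 15 LTS cells and 34 UMIs in 12 control cells. A dendritic cluster led by Ccr7 and Ccl22 had Ndrg1 at 173 CPM in LTS and 61.1 in control, from 23 UMIs in 19 LTS cells and 5 UMIs in 18 control cells, while a dendritic cluster led by Rnase6 had 0 CPM in LTS and 30.3 in control. B cells had Hk2 at 0 UMIs in 73 LTS cells and 1 UMI in 24 control cells. These counts are few, and no comparison between the libraries rests on them.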
